A study of Mus musculus with 7 samples.

Results

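Potassium channels, transient receptor potential (TRP) channels and Piezo channels were examined in endothelial cells of the fetal mouse lung. Members were all genes whose array annotation symbol begins with Kcn and a further letter, with Trpa, Trpc, Trpm or Trpv and a digit, or is Piezo1 or Piezo2. This gave 115 genes among the 22180 that had a probe set of their own on the array. They comprised 87 potassium channel subunits, 21 TRP channels, 2 Piezo channels and 5 other transcripts with such a symbol, which are not channel subunits. All 115 are called channel genes below, these 5 included. Where a gene had a pair of probe sets, the brighter one over all arrays stood for it, and 4 probe sets that also carried the symbol of another gene were left out, which removed Kcnj13 and Kcnk3 from the members.

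The study set 3 wild-type samples against 4 samples of Sash1-/- genotype, labelled Sash1-knockout. All came from littermate embryos of C57BL/6 background at E18.5, shortly before birth, genotyped by PCR. In both groups, viable lung cells that carried CD31 and lacked CD45 and CD326 were sorted, and RNA was amplified and hybridised to 1 array per sample. The labels give neither the part of Sash1 that was removed nor whether each sample was 1 embryo, nor whether embryos were pooled. A p-value here therefore describes the spread among these 7 samples, part or all of which may be technical.

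Potassium channels let potassium leave the cell and so set the membrane potential of an endothelial cell, which in turn drives calcium entry. Many TRP channels and the Piezo channels admit calcium themselves, the Piezo channels when the membrane is stretched or sheared by flow. In endothelium, calcium activates nitric oxide synthase and small and intermediate conductance potassium channels, which carry hyperpolarisation to the smooth muscle of the vessel wall.

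Values are log2 signals, and a difference is the knockout-labelled mean minus the wild-type-labelled mean. Pecam1, which encodes CD31, measured 11.12 ± 0.03 (SD, n = 3) under the wild-type label and 11.12 ± 0.07 (SD, n = 4) under the knockout label, and all 12 pan-endothelial markers examined were above background on every array. Array medians over all probe sets lay between 3.86 and 4.03. Sash1 itself measured 9.02, 8.73 and 8.33 in wild-type 1 to 3 and 8.29, 8.21, 8.68 and 8.13 in knockout 1 to 4. The labels thus overlapped, with wild-type 3 near the knockout-labelled values and knockout 3 near wild-type 2. Whether this probe set covers the deleted part is not given. Groups are therefore named by label, and counts are given without this pair of arrays too. The CD45 gene Ptprc and the CD326 gene Epcam, negative in the sort, lay at 3.51 to 4.85 and 4.06 to 5.31, above background on 6 and 7 arrays. Of markers of other cells, 9 of 10 for fibroblasts, 8 of 10 for cardiac muscle, 3 of 9 measured for neurons and 1 of 2 measured for erythroid cells were above background on every array.

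Which channels gave signal was read against 1394 olfactory and vomeronasal receptor genes, which endothelial cells should not transcribe. A gene was called expressed where it exceeded the 95th percentile of those receptors' mean signals, a log2 value of 3.99, on all 7 arrays. By this rule 40 of 115 channel genes (34.8%) were expressed, against 51.8% of all genes and 3.44% of the receptor genes themselves. The 40 included 3 of the 5 other transcripts, Trpc4ap, Kcnq1ot1 and Trpc5os. A further 18 were above the line on some arrays and 57 on none. At the 99th percentile, a log2 value of 5.39, 8 members remained above the line on every array (6.96%, against 31.7% of all genes). These were Piezo1, Piezo2, Trpm7, Trpc4ap, Kcna4, Kcnk6, Kcnq1 and Kcnj2. Signals of different probe sets do not rank the amounts of their RNAs, so levels are set only against background and between arrays.

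**Figure D1:**
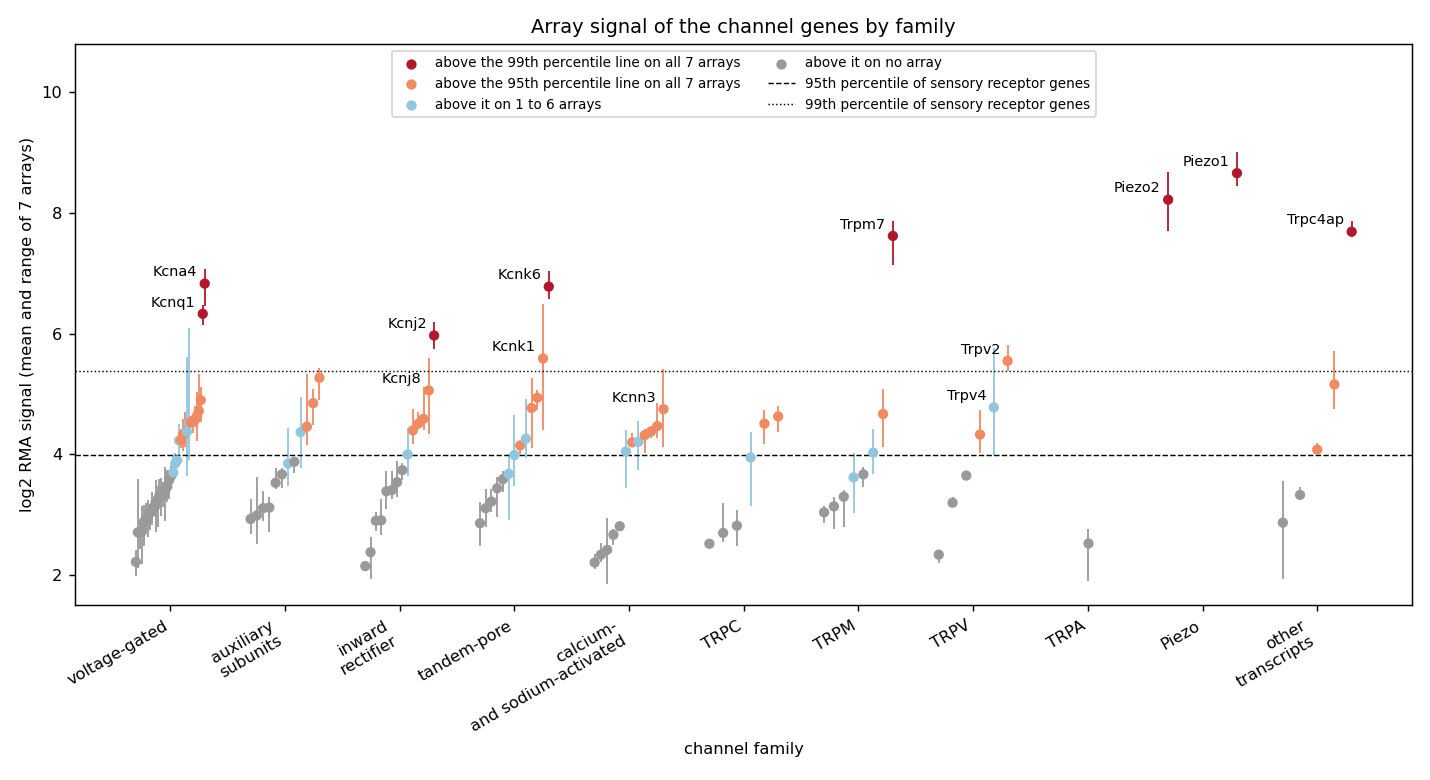
Mean log2 signal of each of the 115 channel genes (points) with its range over 7 arrays (lines), by channel family; dashed and dotted lines mark the 95th and 99th percentiles of sensory receptor genes (3.99 and 5.39). Piezo1, Piezo2, Trpm7 and Trpc4ap stand highest above both lines, and 57 genes lie under the dashed line on every array.

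Both Piezo channels were well above background. Piezo1, the mechanically gated channel through which endothelial cells sense flow, measured 8.69, 8.66 and 8.60 in the wild-type-labelled set and 8.45, 8.60, 9.01 and 8.59 in the knockout-labelled set. The knockout-labelled values ran from below to above the wild-type-labelled ones. Piezo2, best known from touch-sensing neurons and Merkel cells, measured 8.03, 8.19 and 8.68 against 8.19, 8.66, 7.71 and 8.08, with overlap. The array labelled knockout 3 was the highest for Piezo1 and the lowest for Piezo2. The difference was 0.01 (95% confidence interval -0.32 to 0.34) for Piezo1 and -0.14 (-0.72 to 0.44) for Piezo2, with limma's adjusted p at 1.0 and 0.982. The sign turned for Piezo1 without wild-type 3 (-0.01) or knockout 3 (-0.10), and for Piezo2 without the same arrays (0.05 and 0.01).

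Of 21 TRP channels, 6 were expressed, 4 were above background on some arrays and 11 on none. Trpm7, a magnesium- and calcium-permeable channel fused to a kinase, measured 7.69, 7.82 and 7.82 in the wild-type-labelled set and 7.69, 7.86, 7.31 and 7.14 in the knockout-labelled set. Its lowest values were those of knockout 3 and 4, while knockout 2 was the highest of all arrays. The difference was -0.28 (-0.70 to 0.15 at 95% confidence) with limma's adjusted p at 0.971. With 1 array left out it ran from -0.40 (without knockout 2) to -0.16 (without knockout 4). Trpm4, a calcium-activated channel that passes sodium and depolarises the cell, measured 4.12, 4.70 and 4.73 against 4.77, 5.09, 4.90 and 4.41. Leaving out wild-type 1 took its difference from 0.28 (-0.22 to 0.77) to 0.08, and leaving out knockout 4 took it to 0.40. The other TRPM genes, Trpm2 and Trpm5 among them, were below the background line on 3 or more arrays each.

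Trpv2, a calcium-permeable cation channel, measured 5.51, 5.44 and 5.82 in the wild-type-labelled set and 5.65, 5.61, 5.45 and 5.39 in the knockout-labelled set. Trpv4, a calcium channel opened by cell swelling and by arachidonic acid products and one through which agonists dilate pulmonary vessels, measured 5.57, 5.13 and 3.97 against 4.26, 4.17, 5.76 and 4.57. It was thus at background on wild-type 3 and at its highest on knockout 3, and the labels overlapped. Trpc1, a subunit of mixed TRPC channels, measured 4.35, 4.74 and 4.18 against 4.57, 4.57, 4.59 and 4.57, so that the knockout-labelled values lay within the wild-type-labelled range. Trpc6, a diacylglycerol-activated channel of vascular permeability and hypoxic vasoconstriction, was near background, at 4.19, 4.36 and 3.55 against 4.23, 3.14, 4.37 and 3.80. Trpc4 lay between 2.55 and 3.20, Trpv1 between 2.21 and 2.42, and Trpa1 between 1.91 and 2.77, so these channels gave no signal over background on any array. Trpc2, which is best known from the vomeronasal organ, and Trpv6 were expressed by the rule, with values of 4.38 to 4.80 and 4.02 to 4.74.

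Among 14 inward rectifiers, which hold the membrane near the potassium equilibrium potential, 5 were expressed. Kcnj2, which encodes Kir2.1, the strong inward rectifier of endothelium, measured 5.75, 5.78 and 6.02 in the wild-type-labelled set and 6.19, 6.11, 5.98 and 5.98 in the knockout-labelled set. Only wild-type 3 reached into the knockout-labelled range. The difference was 0.22 (-0.03 to 0.46 at 95% confidence), with limma's adjusted p at 0.971 and an unadjusted p of 0.0785. It kept its sign with any 1 array left out (0.16 to 0.30). Kcnj8, which encodes the pore Kir6.1 of ATP-sensitive channels and is typical of pericytes, measured 5.60, 5.24 and 4.34 against 4.92, 4.90, 4.92 and 5.51. Wild-type 3 was the lowest and wild-type 1 the highest, and the difference of 0.00 (-0.72 to 0.73) ran from -0.36 without wild-type 3 to 0.27 without wild-type 1. Its sulphonylurea receptor partner Abcc9 measured 5.57, 5.66 and 4.98 against 5.92, 5.66, 5.52 and 6.68, lowest on wild-type 3 as well. All 11 smooth muscle and pericyte markers, Abcc9 among them, were above background on every array, with list means of 6.30 to 6.86 in the wild-type-labelled set and 6.16 to 7.04 in the knockout-labelled set; their part in the Kcnj8 signal was not tested. The other expressed inward rectifiers were Kcnj10 and Kcnj15 (4.18 to 4.75 together) and Kcnj14, which was at 5.12 on wild-type 3 and at 4.41 to 4.57 on the other arrays. Kcnj11, the Kir6.2 pore of ATP-sensitive channels (3.58 to 3.86), and the strong rectifier Kcnj12 (3.10 to 3.72) were at background throughout. In sorted bulk samples, fewer cells of a type and less RNA per cell cannot be told apart.

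Of 13 tandem-pore channels, which carry background potassium currents, 5 were expressed. Kcnk6, which encodes TWIK2, measured 6.81, 7.04 and 6.81 in the wild-type-labelled set and 6.81, 6.60, 6.58 and 6.81 in the knockout-labelled set. The value 6.81 recurred on 4 arrays, and no knockout-labelled array exceeded it. The difference was -0.19 (-0.44 to 0.07 at 95% confidence), and limma's adjusted p was 0.971. With 1 array left out the difference ran from -0.22 to -0.11 (without wild-type 2). Kcnk1, which encodes TWIK1, had the highest SD over arrays of all members, with values from 4.41 on wild-type 3 to 6.49 on wild-type 1. Kcnk5, which encodes TASK2, was above background on 3 arrays, wild-type 1 and 2 (4.44 and 4.65) and knockout 3 (4.05). The mechanically gated Kcnk2, which encodes TREK1, lay close to the line at 4.00 to 4.22. Kcnk4, which encodes the related TRAAK, lay at 4.73 to 5.06, with a difference of 0.01, and Kcnk15 at 4.10 to 5.27, with a difference of -0.16.

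Calcium-activated channels of small and intermediate conductance mediate endothelium-dependent hyperpolarisation. Kcnn3, which encodes the small conductance channel of endothelium, measured 4.69, 4.84 and 4.13 in the wild-type-labelled set and 5.11, 4.20, 4.84 and 5.42 in the knockout-labelled set. Its difference of 0.34 (95% confidence interval -0.38 to 1.06) had an adjusted p of 0.971 in limma. This difference was 0.13 without wild-type 3, 0.16 without knockout 4 and 0.57 without knockout 2. Kcnn4, the intermediate conductance channel, measured 4.86, 4.41 and 4.27 against 4.28, 4.33, 4.84 and 4.28, highest on wild-type 1 and knockout 3. Kcnma1, the large conductance channel typical of smooth muscle, lay at 2.75 to 2.87, below background on every array and below the level tested, as was the small conductance channel Kcnn2 (2.50 to 2.76). The auxiliary subunits of Kcnma1, Kcnmb4 (4.12 to 4.36) and Kcnmb1 (3.74 to 4.56), were near the background line. Calcium-activated and sodium-activated channel genes, with the Kcnmb subunits, numbered 12. Of these 5 were expressed, Kcnn1, Kcnn3, Kcnn4, Kcnmb4 and the sodium-activated Kcnt1. The second probe set of Kcnmb4 lay at 3.50 to 3.92, below background on every array.

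Of 36 voltage-gated pore subunits 11 were expressed and 19 were at background on every array. Kcnq1, which pairs with KCNE subunits in epithelia and heart, measured 6.32, 6.14 and 6.40 in the wild-type-labelled set and 6.47, 6.45, 6.19 and 6.37 in the knockout-labelled set. Kcna4, an A-type channel, measured 7.07, 6.96 and 6.46 against 6.71, 6.77, 6.89 and 6.98, but its second probe set lay at 2.08 to 3.20, below background on every array. Kcna5, an oxygen-sensitive channel of pulmonary artery smooth muscle, lay between 3.91 and 4.62 on 6 arrays and at 6.09 on knockout 4. Its difference of 0.35 (95% confidence interval -0.81 to 1.51) became -0.13 without that array. Kcna3 was listed at 4.53 on all 7 arrays. The remaining expressed genes of this family were Kcna2, Kcna6, Kcnc4, Kcnd3, Kcng1, Kcng2, Kcnh2 and Kcns3, with values from 4.06 to 5.34. Their differences ran from -0.22 (Kcnc4, which was at 5.34 on wild-type 2 and at 4.53 to 4.66 on the other arrays) to 0.05 (Kcna6). The second probe set of Kcna6 was at 3.88, below background, on wild-type 2 and knockout 3.

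Among 12 auxiliary subunits other than the Kcnmb genes, Kcnip3, Kcne1l and Kcne3 were expressed. Kcnip3, a calcium-binding subunit of A-type channels that also binds DNA, measured 5.36, 5.36 and 4.91 against 5.41, 5.44, 5.02 and 5.36. Kcne3, a partner of Kcnq1, lay between 4.15 and 4.40 on 6 arrays and at 5.34 on knockout 4, and its difference turned from 0.24 to -0.02 without that array. Kcnab2 stayed below background, at 3.69 to 3.93. The other transcripts with such a symbol included Trpc4ap, a ubiquitin ligase adaptor, at 7.61 to 7.86 with an SD of 0.08 over all arrays. Kcnq1ot1, the imprinted non-coding RNA that silences genes around Kcnq1, measured 4.88, 5.15 and 5.57 against 5.72, 5.20, 4.82 and 4.75, with full overlap.

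**Figure D2:**
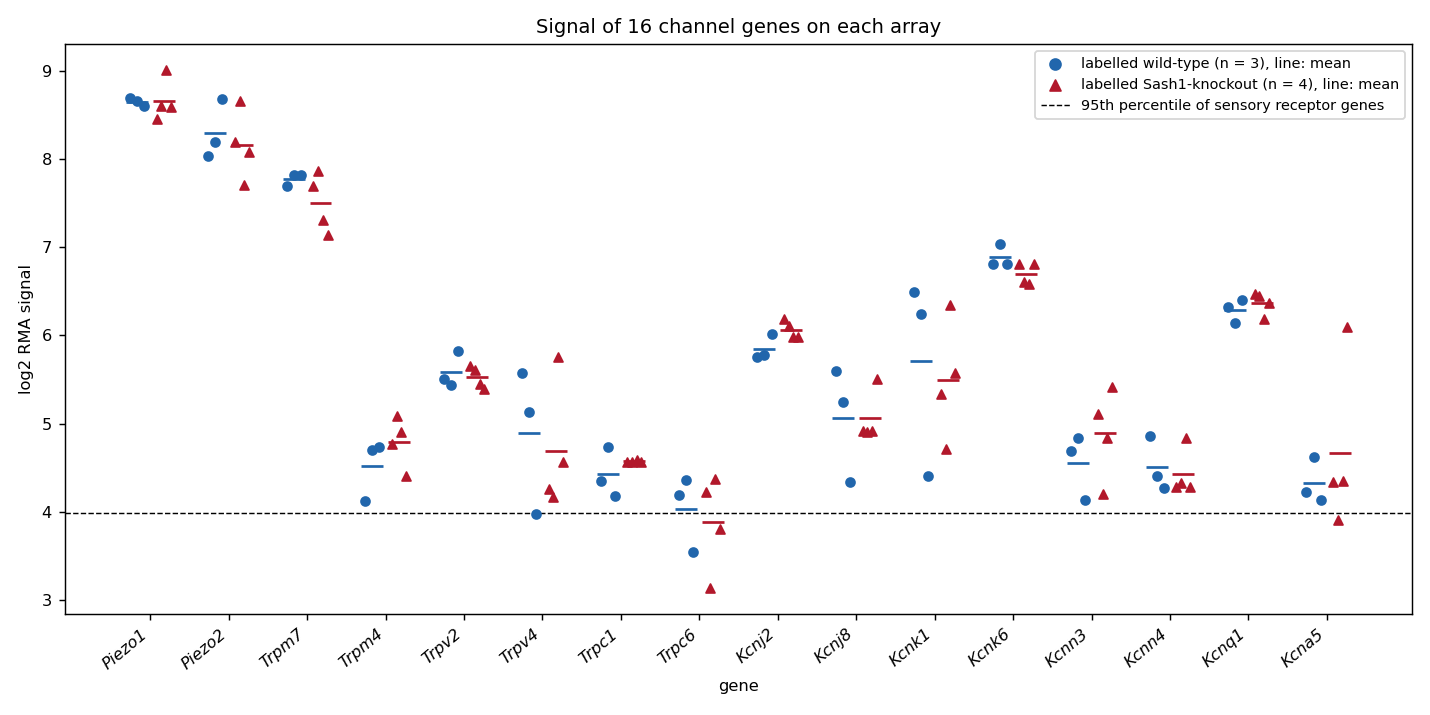
Log2 signal of 16 channel genes on each array labelled wild-type (circles, n = 3) or Sash1-knockout (triangles, n = 4), with group means as lines and the background line at 3.99 dashed. The labels overlap in every gene shown, and Trpv4, Kcnk1 and Kcna5 spread most.

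The comparison of labels called no channel gene. After the dimmest 25% of genes were left out, 91 of the 115 members were among 16637 genes tested with limma. At a Benjamini-Hochberg adjusted p under 0.05, 0 members passed, against 0.0% of all genes tested, and members' adjusted p ran from 0.971 to 1.0. At an unadjusted p under 0.05 there was 1 member, against 3.34% of all genes, or 2.38% in its direction, higher in the knockout-labelled set, and 0.962% in the other. It was Kcnab3, a regulatory beta subunit, at 2.77, 2.83 and 2.51 in the wild-type-labelled set and 2.91, 3.38, 3.63 and 2.91 in the knockout-labelled set. All of these values are below background, and the difference was 0.50 (95% confidence interval 0.03 to 0.98). Its second probe set measured 2.32, 2.25 and 2.98 against 2.71, 2.71, 2.96 and 2.71, with overlap.

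The labels did not overlap in 2 members, Kcnab3 and Kcnd1, against 2.45% of all genes. Kcnd1, an A-type channel, measured 4.23, 3.91 and 4.16 against 4.27, 4.27, 4.50 and 4.28, so that all knockout-labelled arrays lay just above the highest wild-type-labelled one. Its difference was 0.23 (-0.03 to 0.49 at 95% confidence), and limma's adjusted p was 0.971. With 1 array left out the difference ran from 0.14 (without wild-type 2) to 0.30 (without wild-type 1). Both members were higher on the arrays labelled knockout, where 1.77% of all genes had this pattern, and 0 members were lower without overlap, against 0.679%. Of the 91 members tested, 46 had positive and 44 negative differences and 1 a difference of 0, with a median of 0.0025, against 53.9% positive and a median of 0.015 over all genes. The median size of a member's difference was 0.12, against 0.11 over all genes.

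The other members of smallest unadjusted p were mostly at background. Those higher under the knockout label, besides Kcnab3, Kcnd1 and Kcnj2, were Kcng3 (a difference of 0.22), Kcnq3 (0.22) and Trpm1 (0.18), all below the background line on every array. Those with lower values, besides Kcnk6, were Kcna10 (-0.22), Kcnk18 (-0.40), Kcnip4 (-0.18), Kcnd3os (-0.12) and Trpm5 (-0.27). Of these, Trpm5, a calcium-activated taste cell channel, was above background on 4 arrays, Kcnk18 on 1 and the others on none. None of these genes passed the test, each at an adjusted p of 0.971.

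Over the 40 expressed members the 95% confidence interval reached 0.16 to 1.34 to either side of the difference, with a median of 0.33. The interval lay within 0.5 log2 units of 0 for 27 of the 40 and within 1 unit for 38, the exceptions being Kcnk1 and Kcnn3. The narrowest, 0.16, was that of Kcna3, listed at 4.53 on all 7 arrays, so it does not describe a measured spread. Exact repeats on 4 or more arrays, found in 10 of the 40, also make the spread of a gene look smaller. Differences of expressed members ran from -0.28 (Trpm7) to 0.34 (Kcnn3), and 25 of the 40 were 0.1 or less in size.

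**Figure D3:**
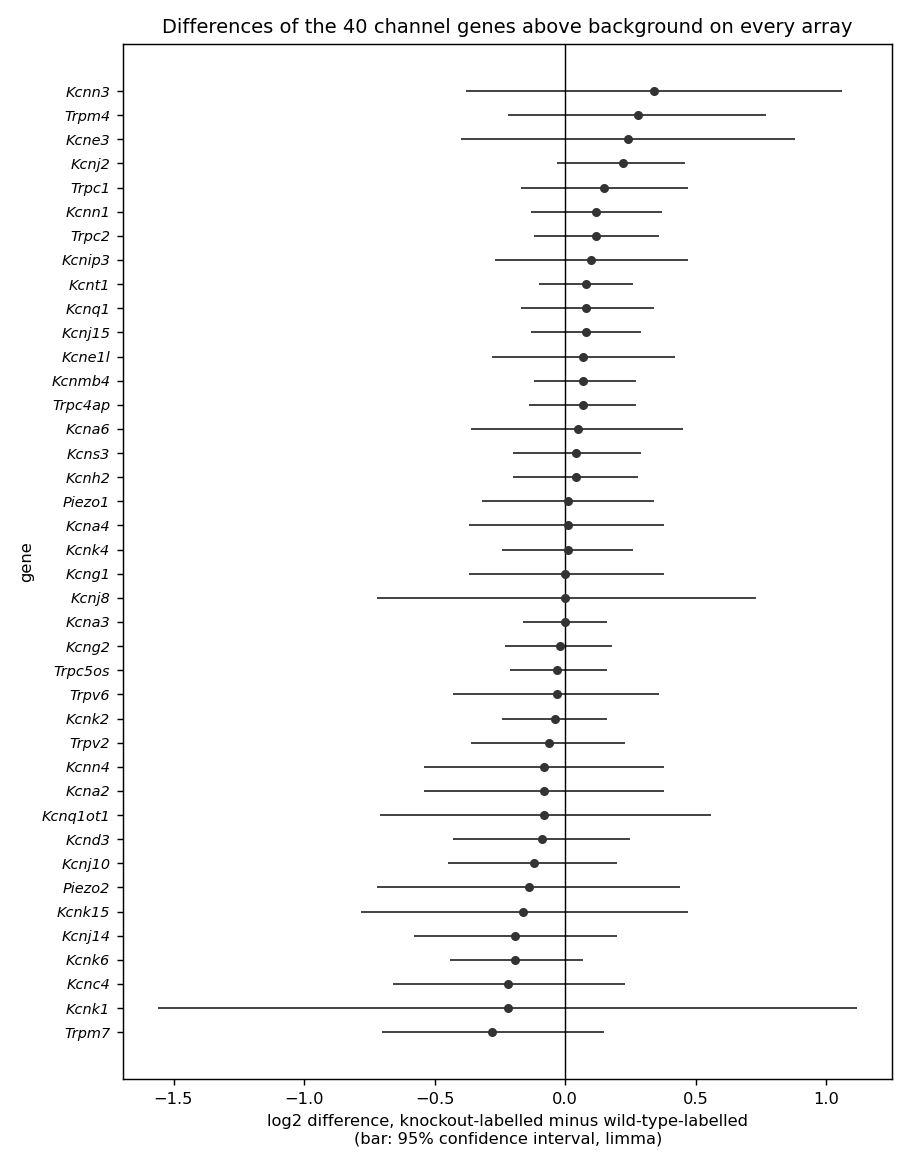
Log2 difference, knockout-labelled minus wild-type-labelled, of the 40 channel genes expressed on all 7 arrays, with limma's 95% confidence intervals as bars. Every interval includes 0, and those of Kcnk1 and Kcnn3 reach beyond 1 log2 unit.

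Single arrays moved these counts. The number of members with an unadjusted p under 0.05 was 0 without wild-type 1 (2.75% of all genes) or knockout 3 (3.96%). It was 1 without wild-type 2 (Trpc1, 1.77%), knockout 2 (Trpm7, 3.33%) or knockout 4 (Kcnab3, 2.37%). There were 2 without knockout 1 (2.8%) and 4 without wild-type 3 (7.9%). Those 4 were Kcnk5 (a difference of -0.70, limma's unadjusted p 0.0026), Kcnj2 (0.30), Kcna10 (-0.29) and Trpm5 (-0.40). Kcnab3 kept such a p without knockout 1 or knockout 4 and lost it without any other array. When wild-type 3 and knockout 3 were both left out, an alternative picked with the data in view, the number was 7, against 10.7% of all genes. Trpv4 (-1.02), Kcnk1 (-1.16) and Kcne2 (-0.55) then joined those 4. Members without overlap then numbered 18, against 24% of all genes. With a single wild-type-labelled array left out they numbered 6 (wild-type 1), 4 (wild-type 2) and 12 (wild-type 3), where the shares of all genes were 7.59%, 5.84% and 15.3%. In each of these fits 0 members passed an adjusted p of 0.05.

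The members that varied most did so across labels. Over 7 arrays Kcnk1 had an SD of 0.82, Kcna5 0.72, Trpv4 0.71, Kcnh1 0.66 and Kcnrg 0.51, while the median over expressed members was 0.19 and over all expressed genes 0.20. Kcnk1, a tandem-pore channel also abundant in epithelia, measured 6.49, 6.24 and 4.41 in the wild-type-labelled set and 5.34, 4.71, 6.35 and 5.57 in the knockout-labelled set. Its 3 highest arrays, wild-type 1, wild-type 2 and knockout 3, were also the 3 highest for Trpv4, and its lowest, wild-type 3, was also the lowest for Trpv4, Kcnk5, Kcne2 and Kcnh1. The difference of Kcnk1 was -0.22 (-1.56 to 1.12 at 95% confidence). It became -0.87 when wild-type 3 was left out, -0.51 for knockout 3, 0.17 for wild-type 1 and 0.04 for wild-type 2 or knockout 2. That of Trpv4, -0.20 (-1.37 to 0.97), became -0.66, -0.56 and 0.14 when wild-type 3, knockout 3 and wild-type 1 in turn were left out, and moved to -0.03, -0.06 and -0.08 for knockout 2, knockout 1 and wild-type 2. Kcnh1, a voltage-gated channel best known from brain, measured 4.75, 3.87 and 3.65 against 4.30, 4.46, 5.61 and 4.00. Its difference of 0.50 (-0.50 to 1.5) was 0.16 without knockout 3 and 0.83 without wild-type 1.

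Markers of other cells moved with some of these arrays. The 16 lung epithelial markers, 15 of them above background on every array, averaged 8.0, 7.65 and 6.96 in the wild-type-labelled set and 7.71, 7.20, 7.79 and 6.36 in the knockout-labelled set. The 15 measured leukocyte markers, 8 of them above background throughout and Itgam and Adgre1 on no array, averaged 6.27, 6.06 and 5.65 against 5.85, 5.68, 6.02 and 5.35. The 5 measured platelet markers, all above background, averaged 5.76, 5.45 and 4.89 against 5.18, 4.84, 5.70 and 4.47. These 3 list means were lowest on knockout 4. So were those of smooth muscle and pericytes (6.85, 6.86 and 6.30 against 6.82, 6.62, 7.04 and 6.16) and of cardiac muscle (5.20). Fibroblast markers averaged lowest on wild-type 1 (7.33), neuronal ones on wild-type 2 (4.04) and erythroid ones on wild-type 3 (3.79). Within the epithelial, leukocyte and platelet lists, members differed. Of the epithelial markers 10 were lowest on knockout 4, with Lamp3 (2.97), Sftpa1 (4.70) and Sftpb (6.13) among them, and 5 were lowest on wild-type 3. Those 5 were Nkx2-1, Krt8, Krt18, Krt19 and Ager, and they were higher on knockout 4 than on wild-type 3, as Kcnk1 and Trpv4 were; Krt19 measured 5.49 on wild-type 3 and 6.41 on knockout 4. Of the leukocyte markers 6 were higher on knockout 4 than on wild-type 3, S100a8 and S100a9 among them, and of the platelet markers 1, Ppbp. Pan-endothelial markers averaged 9.74 to 9.94 on all arrays. The part of these cells in the channel values was not tested.

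**Figure D4:**
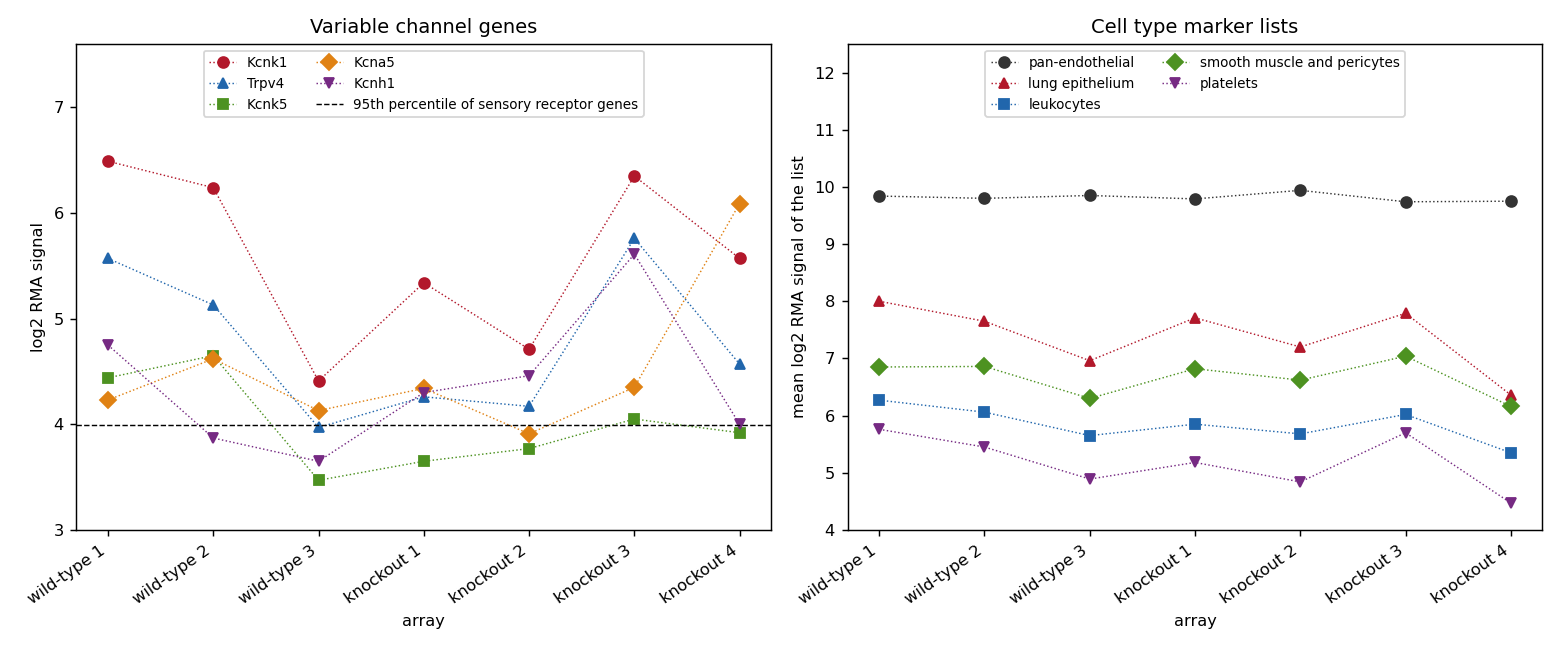
Left, log2 signal of 5 channel genes on each array, with the background line at 3.99 dashed; right, mean log2 signal of 5 marker lists on the same arrays, dotted lines joining points of a gene or list only to guide the eye. Kcnk1 and Trpv4 are highest on wild-type 1, wild-type 2 and knockout 3, Kcna5 stands apart at 6.09 on knockout 4, and pan-endothelial markers stay between 9.74 and 9.94.

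The other machinery of calcium and membrane potential was also expressed without a called difference. Of 30 measured genes of calcium entry and stores, 24 were expressed, 29 were tested and 0 passed, with 12 positive and 17 negative differences and a median of -0.02. Orai1, the pore of store-operated entry, measured 7.46, 7.37 and 6.90 in the wild-type-labelled set and 7.34, 7.37, 7.38 and 7.37 in the knockout-labelled set. The 4 genes of smallest unadjusted p were Orai3 (a difference of 0.29), the lysosomal channel gene Tpcn2 (-0.28), the T-type calcium channel gene Cacna1h (0.26, below background) and Saraf, a brake on store-operated entry (-0.29). Of 28 measured channel partners, gap junction proteins and mechanosensors, 24 were expressed, 26 were tested and 0 passed, with 11 positive and 15 negative differences and a median of -0.02. Here the smallest unadjusted p belonged to the chloride channel gene Ano1 (0.36), Tmem63b (0.21), a mechanically gated channel gene, the cotransporter gene Slc12a2 (-0.36) and the caveolin gene Cav2 (0.16). Neither list had a gene with a limma p under 0.05 before adjustment (0 and 0 genes), against 3.34% of all genes tested. At that share few would fall in lists of this size. Of all genes, 51.8% were expressed.

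Promoter sequence was set beside expression because it is a feature that the choice of genes did not use. RefSeq windows (assembly GRCm38.p6) were found for 92 members, and the 250 bases before the start site of the first listed transcript were examined. Sequences with 10 or more CG dinucleotides, a feature of broadly active promoters, made up 16 of 32 expressed members. They made up 7 of 17 members above background on some arrays (41.2%) and 17 of 43 members at background on all arrays (39.5%). Over all array genes with a window the shares were 73.6% of those expressed and 24.6% of those not expressed on all arrays. The latter set takes in genes above background on some arrays as well as on none. A GGAA core of ETS factors on either strand (GGAA or TTCC) stood in 90.6% of the expressed members' windows, in 93.1% of those of all expressed array genes and in 93.4% of all windows. TATAAA on either strand (TATAAA or TTTATA) stood in 1 of 32 expressed members' windows, in 6.6% of those of all expressed array genes and in 13.0% of all windows. A match is a description of the letters and not of a binding site.

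The last 150 bases before the start site follow, 5′ to 3′ on the gene's strand with CG dinucleotides in capitals. Piezo1 (chr8:122551330-122551479, minus strand), Trpm7 (chr2:126876262-126876411, minus strand) and Kcnj2 (chr11:111066014-111066163, plus strand) are shown as members above the stricter background on every array. Trpv4 (chr5:114658422-114658571, minus strand) and Kcnk1 (chr8:125994952-125995101, plus strand) are shown as members that varied most between arrays.
Piezo1: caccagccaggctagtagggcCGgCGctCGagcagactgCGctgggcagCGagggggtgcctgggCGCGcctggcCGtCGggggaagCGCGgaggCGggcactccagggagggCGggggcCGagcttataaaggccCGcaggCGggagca
Trpm7: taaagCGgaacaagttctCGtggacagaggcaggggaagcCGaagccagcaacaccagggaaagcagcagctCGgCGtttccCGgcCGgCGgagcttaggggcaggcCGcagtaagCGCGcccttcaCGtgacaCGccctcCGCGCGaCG
Kcnj2: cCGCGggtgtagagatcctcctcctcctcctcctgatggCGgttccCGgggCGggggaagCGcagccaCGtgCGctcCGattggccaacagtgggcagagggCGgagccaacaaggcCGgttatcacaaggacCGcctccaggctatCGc
Trpv4: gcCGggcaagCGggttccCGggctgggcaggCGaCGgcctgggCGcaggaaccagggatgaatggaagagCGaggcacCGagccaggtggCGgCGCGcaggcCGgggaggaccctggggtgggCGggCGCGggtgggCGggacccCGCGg
Kcnk1: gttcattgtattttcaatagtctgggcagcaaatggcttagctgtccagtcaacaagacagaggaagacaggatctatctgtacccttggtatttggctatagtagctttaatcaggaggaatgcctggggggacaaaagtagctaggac
The first 3 held 16, 17 and 13 CG dinucleotides. Trpv4 held 18 and Kcnk1 held 0.

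Members that lie next to each other on a chromosome were also compared in signal. The share of such pairs over all neighbouring genes was not computed, and 34.8% of all members were expressed. The counts are therefore a description of these pairs only. In the RefSeq gene order 15 pairs of members were direct neighbours among protein-coding genes. Both genes were expressed in 1 pair, Kcna3 and Kcna2, 1 of the pair in 8, and neither in 6. Kcnj2 was expressed beside Kcnj16, which was at background on all arrays, and so was Kcnj15 beside Kcnj6, Kcnj10 beside Kcnj9, and Kcnq1 beside Trpm5, which was above background on 4 arrays.

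Many channel genes lay in a range where the deposited values repeated exactly. The same value, to 2 decimals, stood on 4 or more of the 7 arrays for 25 of 91 members tested (27.5%), against 14.1% of all genes tested. The share over all genes was 26.3% at a mean under 4, 16% from 4 to 6 and 4.72% at 6 and over. Members with such repeats numbered 15 of 41, 9 of 43 and 1 of 7 in those ranges. Among expressed members there were 10, with Kcna3, Kcnk6, Kcnn1, Kcnk2 and Kcnmb4 among them.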

How the data were processed

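The authors deposited 1 log2 signal per probe set and array for 7 samples of sorted lung endothelial cells, made, per the submitters' processing notes, with RMA in Affymetrix Expression Console 1.1. Their range, 0.32 to 13.7, shows the log2 scale. For the array annotation no genome build is stated, and none was needed. Of 41345 probe sets 23521 had 1 symbol, and 99.2% of their gene identifiers were found in the RefSeq table.

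Genes below the 25th percentile of mean signal (a log2 value of 2.98) were left out, including 24 members. Labels were compared with limma 3.58.1 in R 4.3.3 (lmFit and eBayes, genotype as the only term, two-sided, Benjamini-Hochberg over all 16637 genes); the code was tested on simulated data. The number of arrays limits the precision.

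Named genes were channels with a known role in vessels or lung, the 6 of smallest unadjusted p in each direction, the 12 of highest mean and the 5 of largest SD, with 4 per context list. Other genes are named as examples chosen after their values were seen. Members and lists were chosen with earlier results of these data known. Protein sequences were not used here.

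Alternatives covered the filter, normalization, moderation, array weights, probe set choice, replicate block, background line and each array left out.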

Additional observations from a re-analysis of the deposited data

Results flagged for a closer look

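Of 47 named members examined, 10 had 1 knockout-labelled array far from the other 3, by Dixon's 95% criterion. Over the 88 tested members that varied among those arrays there were 17. The criterion's rate of about 1 in 20 is for normal values without ties, and many values here repeat exactly. The share over all genes was not computed, so these counts show no excess among channel genes. In 5 of the 10 the other 3 arrays held 1 identical value, so any departure stood apart: Kcnab2 on knockout 2 (3.69), Kcnj12 on knockout 4 (3.72), and Kcnma1 (2.75), Kcnn2 (2.76) and Trpc1 (4.59) on knockout 3. The others were Kcnd1 (4.50) and Kcnn4 (4.84) on knockout 3, Kcnj8 on knockout 4 (5.51), and Kcnmb4 (4.36) and Trpc4 (3.20) on knockout 1.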

How the results depend on the processing

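No member passed an adjusted p of 0.05 in limma under any alternative fitted. Members with an unadjusted p under 0.05, 1 in the comparison as reported, numbered 5 with array weights (7.87% of all genes), 0 with a filter on 50% of genes (3.42%), with averaged probe sets (3.34%) or with the replicate block as a random effect (2.21%), 7 without wild-type 3 and knockout 3 (10.7%), and 0 to 4 with 1 array left out. With the replicate block as a fixed term, where knockout 4 has no partner, the count was 1, and over all genes the unadjusted count fell from 556 to 225 (367 with the random block, 1310 with array weights, 1779 without both arrays, and 295 to 1314 with 1 array left out). The labels give no shared source for a number, and deviations of same-numbered arrays correlated at -0.18, -0.20 and -0.55. Members without overlap, 2 as reported, numbered 0 with the 50% filter (2.8% of all genes), 4 with quantile normalization (5.03%), 6 with median centring (3.74%), 18 without both arrays (24%), and 2 to 12 with 1 array left out (4.09% to 15.3%). The median difference ran from -0.01 to 0.04 with 1 array left out. Expressed members, 40 as reported, numbered 63 at the 90th percentile of receptor genes, 8 at the 99th, 17 against each array's median of all genes, and 40 to 42 with 1 array left out.

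Signs turned for Kcna4 with quantile normalization (-0.01), array weights (-0.08), the mean of probe sets (-0.06) and the fixed replicate block (-0.04). They turned for Kcna5 (-0.13), Kcne3 (-0.02) and Kcnq1ot1 (0.05) with the fixed replicate block, and for Kcnq1ot1 (0.02) and Trpv2 (0.01) with array weights. Without wild-type 3 and knockout 3 they turned for Kcna4 (-0.20), Kcnh1 (-0.06), Kcnq1ot1 (0.21), Piezo1 (-0.13), Piezo2 (0.20) and Trpv2 (0.08). With 1 array left out 12 of the 43 named differences turned: Kcna2 (-0.22 to 0.09), Kcna4 (-0.18 to 0.13), Kcna5 (-0.13 to 0.60), Kcne3 (-0.02 to 0.38), Kcnip3 (-0.05 to 0.19), Kcnk1 (-0.87 to 0.17), Kcnn4 (-0.22 to 0.09), Kcnq1ot1 (-0.28 to 0.11), Piezo1 (-0.10 to 0.08), Piezo2 (-0.31 to 0.05), Trpv2 (-0.14 to 0.05) and Trpv4 (-0.66 to 0.14). Named channels outside those 43 turned too: Kcnab2 (-0.06 to 0.03), Kcnmb1 (-0.06 to 0.25), Trpc6 (-0.39 to 0.10), Trpm2 (-0.02 to 0.31) and Trpm3 (-0.06 to 0.03). Kcnj8, at a difference of 0.00 and not counted as turned, ran from -0.36 to 0.27. With 1 array left out 38 of the 40 expressed members moved by over 1.5 times or turned. The cause was not tested.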

Other observations

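The array labelled knockout 4 was the highest for 4 of the 40 expressed channel genes, against 9 for wild-type 1 and 8 for knockout 1. The 9 count Kcna3, which had the same value on all 7 arrays. The expressed members' median deviation on knockout 4 was 0.01. On it Kcna5 was at 6.09, Kcnn3 at 5.42 and Kcne3 at 5.34, and Abcc9, the partner of Kcnj8, at 6.68, while the smooth muscle and pericyte marker list had its lowest mean on that array (6.16). Trpv2 had a pair of probe sets that both lay above background, and their differences were -0.06 and 0.06.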
